A study of Homo sapiens with 9 samples.

Results

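The cystatins are inhibitors of cysteine proteases, and 7 genes of this family were followed in the transcriptome of MDA-MB-231 cells: CST1, CST2, CST3, CST4, CST6, CSTA and CSTB. They were taken by gene name from a table of 58735 genes, and 6 of the 7 passed the filter on low read counts that left 16188 genes for testing. CSTA did not pass it. The family was chosen by measured values of these data, the low counts of CST1 in erastin-R against vehicle cells, and by shared membership of 1 protease inhibitor family. The measurements of the members in that comparison are therefore given as a description, with fold changes and standard errors (SE) and with no p-value.

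Cystatins bind the active site cleft of papain-like proteases such as the lysosomal cathepsins and block it reversibly. Type 2 cystatins (CST1, CST2, CST3, CST4 and CST6) carry a signal peptide and are secreted, whereas type 1 cystatins, also called stefins (CSTA and CSTB), have none and act mainly inside the cell. CST1, CST2 and CST4 encode the salivary cystatins SN, SA and S, and CST1 is known to be expressed in several carcinomas.

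RNA was sequenced from MDA-MB-231, an established mesenchymal triple-negative breast cancer line, in 9 libraries of 3 groups with 3 libraries each. Vehicle cells received DMSO, erastin-R cells had survived rising concentrations of erastin, and RSL3-R cells had survived rising concentrations of RSL3. Erastin blocks the cystine importer system xc-, RSL3 inhibits the lipid peroxide reducing enzyme GPX4, and both induce ferroptosis, an iron-dependent form of cell death. All groups come from 1 cell line, the labels give neither doses nor duration, and no source used here says whether the 3 libraries of a group came from separate cultures or separate selections. The p-values below thus measure only the spread between these libraries, which may be technical.

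Total read counts ranged from 15405102 to 17273464 per library, so that 3 reads, taken as the floor of detection, equal 0.175 to 0.193 CPM (the unit of edgeR that sets a gene's count in relation to the TMM-normalized library total). This floor covers counting error only. The markers of the line were present: the summed level of VIM, CD44, AXL, MSN and CAV1 was 4494 to 4939 CPM in every library. This sum hides opposite changes of its members. After erastin, log2 fold changes against vehicle were -1.14 for CAV1, 0.58 for AXL, -0.15 for CD44, -0.04 for MSN and -0.03 for VIM. After RSL3 they were -0.86, 0.40, -0.43, 0.19 and -0.13 in the same order. ESR1 and PGR, the hormone receptor genes that a triple-negative line lacks, reached at most 12 and 2 reads, and the epithelial genes CDH1 and EPCAM at most 59 and 48. Of the genes of other cell types, the T cell gene CD3E had at most 4 reads, the endothelial CDH5 at most 3, and the keratinocyte genes KRT5, KRT14, IVL and LOR none. PECAM1, an adhesion gene of endothelium and leukocytes, was nevertheless measured at 9.54 to 11.1 CPM in vehicle, 1.27 to 2.14 in erastin-R and 11.6 to 13.8 in RSL3-R libraries when summed with CDH5. The summed leukocyte genes (PTPRC, CD3E and CD14) gave 3.71 to 4.69 CPM in vehicle, 1.46 to 2.38 in erastin-R and 4.10 to 5.03 in RSL3-R libraries. Both lists were thus lowest in the group in which CST1, CST2 and CST4 were lowest. The genes low in this line (ESR1, PGR, CDH1 and EPCAM) summed to 3.09 to 4.05 CPM in vehicle, 1.46 to 2.92 in erastin-R and 5.41 to 6.02 in RSL3-R libraries, the order of the salivary cystatins without overlap. Among them CDH1, the gene of E-cadherin, had 14 to 27 reads in vehicle, 6 to 20 in erastin-R and 53 to 59 in RSL3-R libraries, and it rose by 1.58 on the log2 scale in RSL3-R against vehicle cells (SE 0.33, edgeR adjusted p = 0.00130). EPCAM did not share this rise, with 28 to 48 reads in vehicle, 15 to 25 in erastin-R and 21 to 35 in RSL3-R libraries. Its log2 fold change in RSL3-R against vehicle cells was -0.37 (SE 0.29, edgeR adjusted p = 0.314). The part of these 3 lists in the results on CST1, CST2 and CST4 was not tested. In bulk RNA, fewer cells that express a gene and less RNA of it per cell cannot be told apart.

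CST1, CST2 and CST4 are neighbours with closely similar coding sequences, and these bear on how far their reads can be separated. CST3, CST4, CST1 and CST2 lie in this order on the minus strand of chromosome 20 within chr20:23626706-23826731 (GRCh38), a span of 200 kb. CST6 lies at chr11:66011841-66013505, CSTA at chr3:122325244-122341972 and CSTB at chr21:43772511-43776445. The coding sequences of CST1, CST2 and CST4 in GENCODE (the first transcript listed for each gene) are each 426 bases long, in 3 exons, and 376 of the 426 positions (88.3%) are identical in all 3.

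Coding bases 259 to 375 are shown because they hold the longest run without a difference among the 3 genes, 87 bases. These bases cross an exon boundary and, intron included, span chr20:23747867-23749099 in CST1, chr20:23824071-23825293 in CST2 and chr20:23685945-23687171 in CST4. They are given 5′ to 3′ on the coding strand, capitals mark the positions that are not the same in all 3, and CST1 and CST4 carry the same letters throughout:
CST1: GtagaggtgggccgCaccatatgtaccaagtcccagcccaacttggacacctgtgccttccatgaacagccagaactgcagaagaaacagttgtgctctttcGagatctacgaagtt
CST2: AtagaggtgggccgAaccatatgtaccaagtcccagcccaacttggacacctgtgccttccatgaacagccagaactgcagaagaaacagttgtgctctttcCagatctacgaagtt
CST4: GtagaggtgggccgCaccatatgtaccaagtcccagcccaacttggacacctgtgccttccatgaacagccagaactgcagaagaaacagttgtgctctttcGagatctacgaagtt

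The pairs differed in how close they are. Coding identity was 92.7% for CST1 and CST4, 92.5% for CST2 and CST4 and 91.3% for CST1 and CST2, against 69.8% to 72.6% between these 3 genes and CST3. CSTA and CSTB were 57.9% identical to each other. At the 50 positions that are not the same in all 3 salivary genes, CST1 alone differed at 18, CST2 alone at 19 and CST4 alone at 13.

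A read that lies wholly within a shared stretch fits more than 1 gene, and the authors used uniquely mapped reads only. Of all 100-base stretches of the transcripts of CST1, 6.86% also occur in CST4, and 8.13% of those of CST4 occur in CST1, whereas no 100-base stretch of CST2 occurs in another gene. With 50-base stretches the shares with any other gene rise to 23.6% for CST1, 30.2% for CST4 and 8.30% for CST2. With 150-base stretches they fall to 0.415% for CST1, 0.498% for CST4 and 0% for CST2. CST3, CST6 and CSTA share no 50-base stretch with another gene, and CSTB shares 0.150% of its stretches. The read length is not given in the sources used here, so which of these shares applies is not known, and the separate counts of CST1 and CST4 carry more uncertainty than those of the other members. No exon of a member overlaps an exon of another gene.

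Among the 6 members tested, the salivary cystatins had the largest differences between groups. CST1 had 208, 244 and 280 reads in the vehicle libraries, 3, 2 and 6 in the erastin-R libraries and 568, 568 and 530 in the RSL3-R libraries. The groups did not overlap, and the erastin-R libraries lay at or near the floor of 3 reads. The mean was 14.9 ± 2.44 CPM in vehicle, 0.224 ± 0.125 CPM in erastin-R and 34.3 ± 2.95 CPM in RSL3-R cells (SD, n = 3).

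CST2 followed the same order at lower counts in RSL3-R cells. It had 211, 203 and 180 reads in vehicle, 26, 22 and 19 in erastin-R and 384, 450 and 389 in RSL3-R libraries, again with no overlap between groups. Its mean level was 12.1 ± 0.840 CPM in vehicle, 1.37 ± 0.199 CPM in erastin-R and 25.2 ± 2.64 CPM in RSL3-R cells (SD, n = 3). CST4, the most abundant of the 3, had 547, 548 and 443 reads in vehicle, 58, 39 and 39 in erastin-R and 1160, 1273 and 1297 in RSL3-R libraries. Every erastin-R library lay below every vehicle library, and every RSL3-R library above. The mean CPM of CST4 was 31.3 ± 3.46 in vehicle, 2.77 ± 0.596 in erastin-R and 76.6 ± 2.26 in RSL3-R libraries (SD, n = 3).

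CST3 encodes cystatin C, the secreted cystatin that most tissues make, and was the member with the most reads. It had 6457, 6045 and 6174 reads in vehicle, 3981, 4627 and 5006 in erastin-R and 5126, 5770 and 5797 in RSL3-R libraries. The mean was 379.7 ± 5.88 CPM in vehicle, 278.6 ± 36.3 CPM in erastin-R and 342.6 ± 14.4 CPM in RSL3-R cells (SD, n = 3). Both treated groups lay below the vehicle range, and the erastin-R group had the widest spread, with replicate 1 the lowest of all 9 libraries.

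CSTB, the cytosolic and nuclear stefin B of most cell types, was the only type 1 cystatin at a level that could be tested. Its libraries held 1457, 1377 and 1244 reads in vehicle, 1020, 827 and 953 in erastin-R and 1021, 971 and 943 in RSL3-R cells. The mean was 82.9 ± 5.40 CPM in vehicle, 57.1 ± 4.13 CPM in erastin-R and 60.4 ± 5.36 CPM in RSL3-R cells (SD, n = 3). Both treated groups were below all vehicle libraries and overlapped each other.

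CST6 and CSTA were near the limit of detection. CST6 encodes cystatin E/M, an inhibitor of legumain as well as of cathepsins L and V, and had 7, 8 and 6 reads in vehicle, 16, 8 and 14 in erastin-R and 5, 14 and 15 in RSL3-R libraries. It passed the filter through its counts in the treated libraries. CSTA, the stefin A of squamous epithelia and leukocytes, had 1, 3 and 8 reads in vehicle, 0, 0 and 1 in erastin-R and 1, 5 and 8 in RSL3-R libraries. Summed over a group these are 12, 1 and 14 reads, and the vehicle level was 11.9 times the erastin-R level with an exact 95% interval from 1.77 to 511, which covers counting error only. This interval describes the contrast that chose the family, and nothing is read from it. The RSL3-R to vehicle ratio of CSTA was 1.18 with an interval from 0.506 to 2.79, and no difference between these groups was detectable at this depth.

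**Figure D1:**
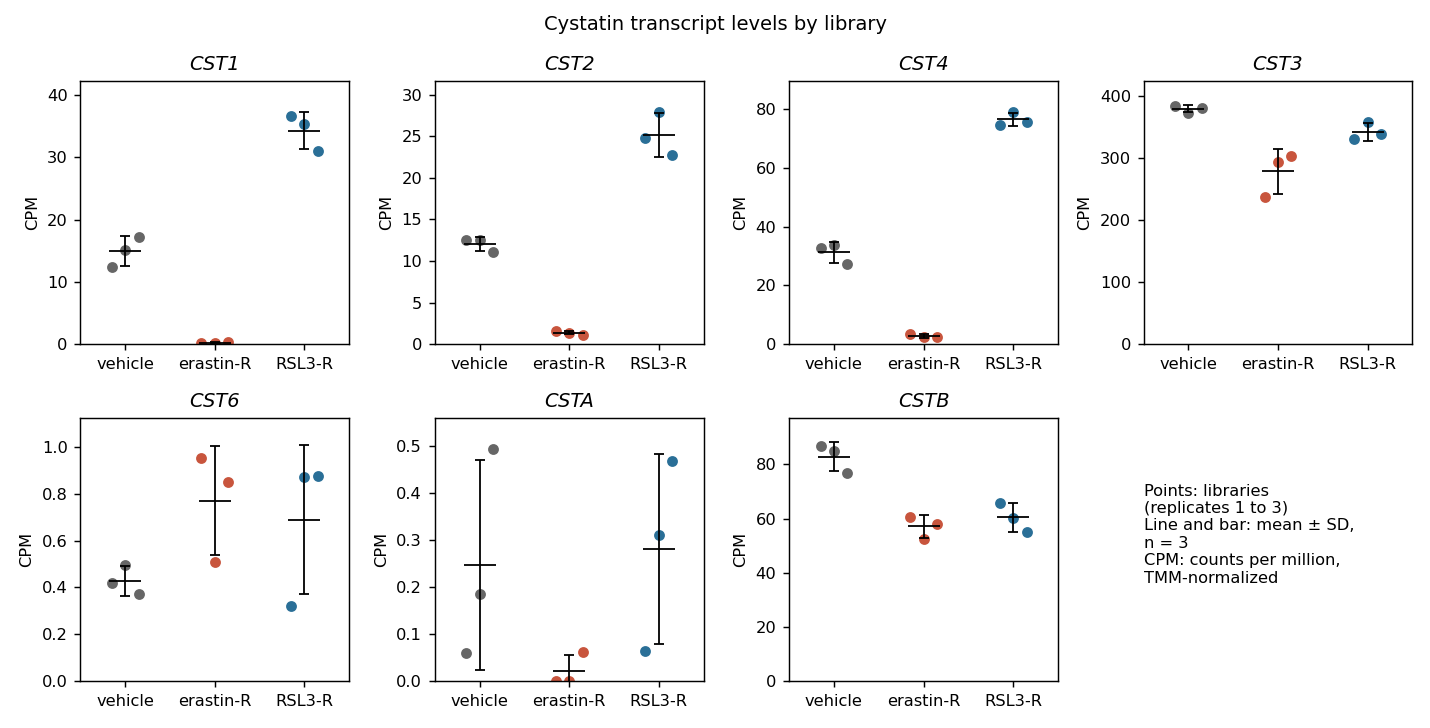
Level of each of the 7 cystatins in CPM (y axis, starting at 0, with its own scale for each gene) in the 3 libraries of each group (x axis). Points are libraries, horizontal lines are group means and bars are SD with n = 3; the salivary genes show the order erastin-R, vehicle, RSL3-R without overlap, with CST4 at 2.77, 31.3 and 76.6 CPM.

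Levels of different genes were compared as FPKM, which divides counts by gene length. In vehicle cells the order of mean FPKM was CST3 (101.7), CST4 (41.2), CSTB (20.8), CST1 (16.9), CST2 (16.0), CST6 (0.557) and CSTA (0.178). The ranges of CSTB and CST1 overlapped there, as did those of CST1 and CST2. In erastin-R cells CST3 (74.4 FPKM) was followed by CSTB (14.3), CST4 (3.63), CST2 (1.80), CST6 (1.0), CST1 (0.253) and CSTA (0.0146), so that CST1 stood below CST6. In RSL3-R cells CST4 came first at 101.2 FPKM, followed by CST3 (92.0), CST1 (39.0), CST2 (33.4), CSTB (15.2), CST6 (0.902) and CSTA (0.203), and the ranges of CST1 and CST2 overlapped.

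The lead of CST4 over CST3 in RSL3-R cells depended on the gene length. The authors' length of CST3 counts every annotated exon, 3695 bases, whereas its first GENCODE transcript is 873 bases long. With the length of the first transcript, an alternative chosen after the data were seen, CST3 was at 430.4, 314.8 and 389.5 FPKM in vehicle, erastin-R and RSL3-R cells and came first in each group. The same change moved CSTB to 37.9, 26.0 and 27.7 FPKM and CST1 to 19.4, 0.290 and 44.8 FPKM, and left CST2 and CST4 as they were. The overlaps of ranges given above are those of the deposited FPKM. Comparisons of 1 gene between groups do not involve the length.

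The make-up of the family's transcripts differed between groups. By deposited FPKM, CST3 made up 51.5 ± 1.57% of the family total in vehicle, 77.8 ± 4.02% in erastin-R and 32.6 ± 0.833% in RSL3-R libraries (SD, n = 3). CST4 made up 20.8 ± 1.88%, 3.88 ± 1.19% and 35.9 ± 0.807% in the same order, and CSTB 10.6 ± 0.479%, 15.1 ± 2.18% and 5.41 ± 0.468%. The ratio of CST4 to CST3 within a library was 0.405 ± 0.0476 in vehicle, 0.0505 ± 0.0184 in erastin-R and 1.10 ± 0.0140 in RSL3-R libraries. Its 3 groups did not overlap. These values also depend on the gene length: with the length of the first transcript, CST3 made up 78.9 ± 0.983%, 90.4 ± 1.92% and 65.2 ± 0.976% of the family total in the same order, CST4 7.54 ± 0.799%, 1.07 ± 0.366% and 16.9 ± 0.229%, and the ratio of CST4 to CST3 was 0.0958 ± 0.0112, 0.0119 ± 0.00435 and 0.260 ± 0.00330. The order of the groups was the same for each of these quantities.

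The balance among the salivary genes themselves was also unequal in erastin-R cells. CST1 accounted for 25.7 ± 4.84% of the reads of CST1, CST2 and CST4 in vehicle, 5.33 ± 3.50% in erastin-R and 25.2 ± 1.53% in RSL3-R libraries (SD, n = 3). Its share was lower in each erastin-R library (3.17% to 9.38%) than in any other library (21.5% to 31.0%). CST2 held 20.7 ± 0.995%, 31.5 ± 2.97% and 18.5 ± 1.07%, and CST4 53.6 ± 4.0%, 63.2 ± 3.07% and 56.3 ± 1.92%. Between vehicle and RSL3-R libraries the shares of CST1 overlapped, whereas those of CST2 did not (19.9% to 21.8% against 17.6% to 19.6%). The summed reads of the 3 genes were 903 to 995 in vehicle and 2112 to 2291 in RSL3-R libraries. The erastin-R shares rest on 63 to 87 reads per library.

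**Figure D2:**
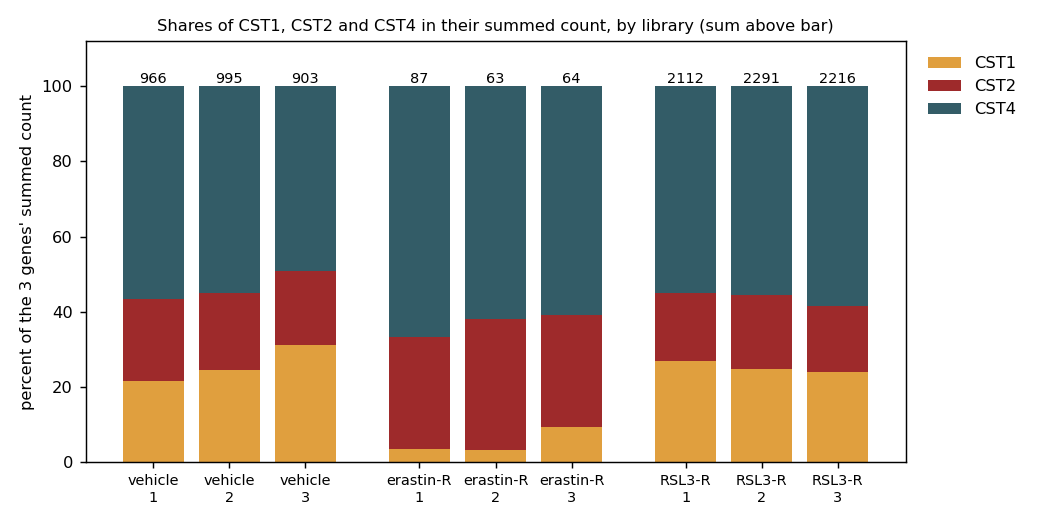
Share of CST1, CST2 and CST4 in the summed reads of these 3 genes (y axis, percent) in each of the 9 libraries (x axis), with the number of reads printed above each bar. CST1 takes 3.17% to 9.38% in the erastin-R libraries and 21.5% to 31.0% in the others.

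The first comparison asked how cells that survived erastin differ from vehicle cells. CST1 was lower by a log2 fold change of -6.00 (SE 0.26), a 64.2-fold difference, and its fitted fold change ranked 1 of the 16188 genes tested counting from the lowest. CST4 was at -3.49 (SE 0.13), or 11.2-fold lower and rank 17, and CST2 at -3.13 (SE 0.16), or 8.78-fold lower and rank 33. CST3 at -0.45 (SE 0.08) and CSTB at -0.54 (SE 0.08) were lower by less than the minimum log2 fold change of 1, and CST6 had 0.85 (SE 0.46). A gene counted as called when edgeR's quasi-likelihood test gave an adjusted p under 0.05 and the absolute log2 fold change was at least 1. By this rule 3 members were called lower and none higher, where 6.66% of all genes tested were called lower and 6.7% higher. Without the minimum fold change 5 members were lower and none higher, where 26.8% and 27.1% of all genes were. In 5 members every erastin-R library lay below and in 1, CST6, above every vehicle library in CPM, as in 29.1% and 28.7% of all genes. The choice of the family used this contrast, and nothing is read from these counts. The median log2 fold change was -1.84 over the 6 members tested and -0.004 over all genes. This median lies between CST2 (-3.13) and CSTB (-0.54), describes no single member, and nothing is read from it either.

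CST1 in erastin-R cells rests on 11 reads in all. The ratio of its vehicle to its erastin-R level from the summed reads was 66.2, with an exact 95% interval for counting error from 36.8 to 133. The edgeR SE of 0.26 understates this error, and DESeq2 gave a log2 fold change of -6.05 with an SE of 0.46. Leaving out each library in turn gave log2 fold changes between -6.53 and -5.74. The interval, this range and the rank of CST1 describe the contrast that chose the family, and nothing is read from them.

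The second comparison asked the same of cells that survived RSL3, and it shares the vehicle libraries with the first. CST4 had a log2 fold change of 1.29 (SE 0.10), a 2.45-fold difference, CST1 of 1.20 (SE 0.13) and CST2 of 1.06 (SE 0.11). They are given without a p-value, since the vehicle values of CST1 entered the choice of the family and CST2 and CST4 share sequence with it. All 3 RSL3-R libraries lay above all vehicle libraries for each of these genes. These were the 3 members called higher, of 6 tested, where 6.02% of all genes tested were called higher. None was called lower, where 4.08% of all genes were. Nothing is read from the count of the 3.

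The call of CST2 lay at the edge of the minimum fold change. Without RSL3-R replicate 2 its log2 fold change was 0.97, and without vehicle replicate 3 it was 0.997, so that 2 members were called in either case. The 3 calls are not treated as independent pieces of evidence either, as the genes share part of their sequence. With the reads of CST1, CST2 and CST4 summed to 1 feature, the log2 fold change was 1.22.

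No other member was called. CSTB fell by 0.46 on the log2 scale (SE 0.08, adjusted p = 0.000413 by edgeR's quasi-likelihood test with Benjamini-Hochberg adjustment), short of the minimum fold change and lower in 3 of 3 libraries. CST3 had a log2 fold change of -0.15 (SE 0.08, edgeR adjusted p = 0.141), and passed the adjusted p in a fit of the vehicle and RSL3-R libraries alone (-0.14, adjusted p = 0.00424 by edgeR) and without erastin-R replicate 1 (-0.15, adjusted p = 0.00173 by edgeR). CST6 had 0.69 (SE 0.47, edgeR adjusted p = 0.242), with a 95% interval from -0.22 to 1.61 that leaves room for a change of either sign. By adjusted p alone 3 members were higher and 1 was lower, where 23.8% and 24.9% of all genes were. The RSL3-R libraries lay above all vehicle libraries in 3 members and below them in 2, as in 30.4% and 31.4% of all genes. The median log2 fold change was 0.88 over the 6 members and 0.005 over all genes. This median lies between CST6 (0.69) and CST2 (1.06), and nothing is read from it.

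The third comparison set RSL3-R against erastin-R cells and shares libraries with both others. The log2 fold change was 7.21 (SE 0.24) for CST1, 4.78 (SE 0.13) for CST4 and 4.19 (SE 0.15) for CST2. These are given without a p-value, for the same reason and because the erastin-R libraries entered that choice. The value of CST1 rests on 11 erastin-R reads, and its SE understates their counting error. CST3 was higher in RSL3-R cells by 0.30 (SE 0.08, edgeR adjusted p = 0.00691), with no overlap between the groups. CSTB at 0.08 (SE 0.08, edgeR adjusted p = 0.446) and CST6 at -0.15 (SE 0.43, edgeR adjusted p = 0.789) did not pass the test. In this comparison 3 members were called higher, where 6.86% of all genes tested were, and 4 were higher by adjusted p alone, where 22.3% were. These 4 also had RSL3-R libraries above all erastin-R libraries, as had 25.6% of all genes.

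**Figure D3:**
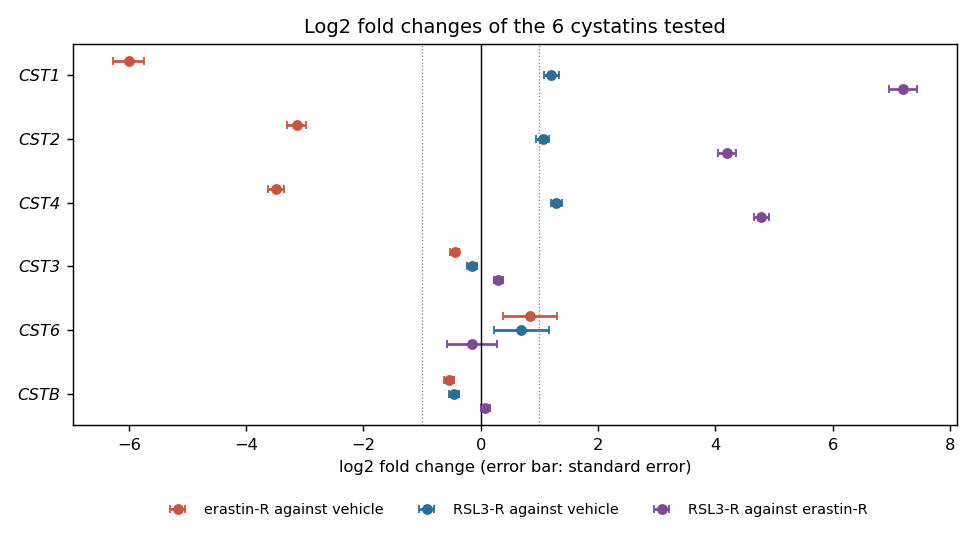
Log2 fold change (x axis) of the 6 tested cystatins (rows) in the 3 comparisons, with SE as error bars and dotted lines at -1 and 1. CST1, CST2 and CST4 lie to the left of the lower line in erastin-R (-6.00, -3.13 and -3.49) and to the right of the upper line in RSL3-R cells (1.20, 1.06 and 1.29), while CST3, CST6 and CSTB lie between the lines.

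Within the type 2 cluster on chromosome 20, CST3 had fold changes nearer to those of the type 1 gene CSTB than to those of the salivary genes; this was not tested as a contrast. CST3 on chromosome 20 and CSTB on chromosome 21 had log2 fold changes of -0.45 and -0.54 in erastin-R cells, and of -0.15 and -0.46 in RSL3-R cells. The closeness of the erastin-R values depended on the libraries: without erastin-R replicate 1 they were -0.34 and -0.59. Without erastin-R replicate 2 they were -0.49 and -0.48, and without replicate 3 -0.51 and -0.55. Of the 16188 genes tested, 31 were called in both comparisons with the signs of CST1, that is negative after erastin and positive after RSL3. CST1, CST2 and CST4 were 3 of them. The erastin-R values of CST1 were used to choose the family, and nothing is read from this count. Both comparisons use the same vehicle libraries, and the members' values in each were given above.

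Few other genes of the region had reads. The window reaching 250 kb to either side of the cluster holds 28 genes, of which 17 have names starting with CST, 21 had no read in any library and 5 were tested. The only gene tested besides the 4 members was the noncoding AL121894.2, which lies within the span of CST3 without sharing an exon with it and had at most 24 reads. Against vehicle, it had log2 fold changes of -1.04 in erastin-R (SE 0.55, edgeR adjusted p = 0.127) and -0.04 in RSL3-R cells (SE 0.49, edgeR adjusted p = 0.949). CST5, the gene of cystatin D beyond CST2, had at most 2 reads, and CST8, CST9, CST9L, CST11 and CSTL1 had none, which allows up to 3 reads per library.

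**Figure D4:**
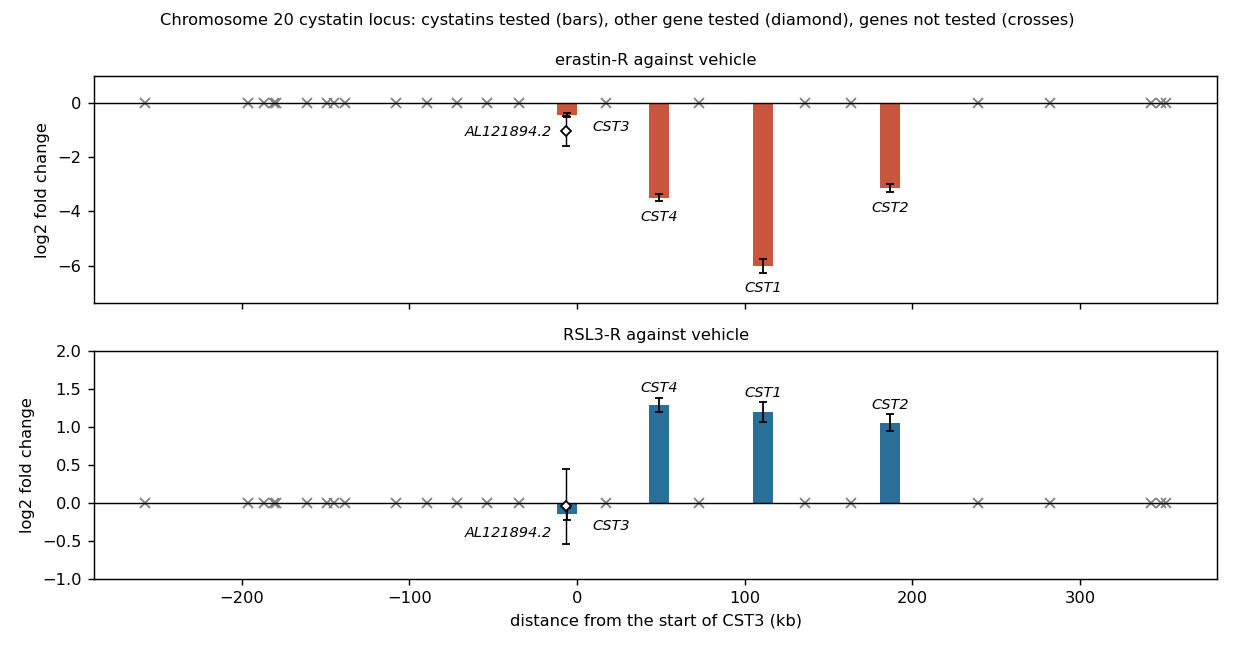
Log2 fold change (y axis) of genes on chromosome 20 against the distance of their midpoint from the start of CST3 in kilobases (x axis), in erastin-R (top) and RSL3-R cells (bottom), each against vehicle. Bars are cystatins with SE, the diamond is AL121894.2 and crosses at 0 are genes not tested; CST4, CST1 and CST2 stand out in both panels, and CST3 at -0.45 and -0.15 does not.

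Around the other members, tested neighbours within 100 kb were more numerous. The 8 next to CST6 were SF3B2, BANF1, C11orf68, DRAP1, SART1, EIF1AD, CATSPER1 and GAL3ST3. Of these, the largest absolute log2 fold changes were those of C11orf68 in erastin-R and BANF1 in RSL3-R cells, and these 2 genes were singled out after their values were seen. BANF1 fell by 0.42 in erastin-R (edgeR adjusted p = 0.000154) and by 0.85 in RSL3-R cells (edgeR adjusted p = 3.30e-07) on the log2 scale, and C11orf68 rose by 0.96 (edgeR adjusted p = 1.08e-05) and 0.70 (edgeR adjusted p = 0.000212). Next to CSTB, PDXK rose by 0.44 in erastin-R cells (edgeR adjusted p = 0.000519), where CSTB itself had -0.54, and had 0.15 in RSL3-R cells (edgeR adjusted p = 0.160). AATBC had 0.08 and 0.41, neither past the adjusted p. RRP1, the nearest gene on the other side that was tested, had 0.11 in erastin-R (edgeR adjusted p = 0.335) and fell by 0.40 in RSL3-R cells (edgeR adjusted p = 0.00346). The 3 tested neighbours of CSTA were FAM162A, CCDC58 and WDR5B, with log2 fold changes of -0.57, -0.84 and -0.37 in erastin-R cells. In RSL3-R cells FAM162A fell by 0.73 (edgeR adjusted p = 5.95e-05), CCDC58 had -0.28 (edgeR adjusted p = 0.412) and WDR5B rose by 0.41 (edgeR adjusted p = 0.0124).

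Among 12969 protein-coding genes, the genes whose pattern over the 9 libraries was most like that of the salivary cystatins included these cystatins themselves. Likeness was the root mean square difference of log2 CPM after each gene's mean was subtracted. For CST4 the nearest were CST2 (0.300), SLCO4C1 (0.492) and AGR2 (0.562), against a median of 2.03 over all genes compared. For CST2 they were SLCO4C1 (0.256), CST4 (0.300) and AGR2 (0.449), and for CST1 they were CST4 (0.899), AGR2 (1.12) and CST2 (1.15). The median of 2.03 depends on the span of CST4 itself, 4.72 between group means, and is no yardstick of likeness. The 3 cystatins share sequence, and the erastin-R values of CST1 were used in the choice of the family. SLCO4C1, an organic anion transporter gene, had a mean of 6.18 CPM in vehicle, 1.0 in erastin-R and 15.5 in RSL3-R libraries. AGR2, which encodes a protein disulfide isomerase of the endoplasmic reticulum, had 9.83, 0.633 and 10.7 CPM, and its log2 fold change in RSL3-R cells was only 0.12 (SE 0.13) against -3.94 (SE 0.20) in erastin-R cells.

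The proteases that cystatins inhibit were measured in the same libraries. All 12 cysteine protease genes of a list of 11 cathepsins and legumain were tested. In erastin-R cells none was called by edgeR, where 6.7% of all genes were called higher and 6.66% lower, and none by DESeq2. By adjusted p alone 4 of the 12 were higher and 3 lower, where 27.1% and 26.8% of all genes were, shares near this background. In RSL3-R cells 2 were called higher, where 6.02% of all genes were, and by adjusted p alone 7 were higher and 1 lower, where 23.8% and 24.9% of all genes were. The median log2 fold change of the 12 was 0.01 after erastin and 0.34 after RSL3.

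CTSL, the gene of cathepsin L, had 1001, 1102 and 963 reads in vehicle, 1461, 962 and 1114 in erastin-R and 2052, 2170 and 2219 in RSL3-R libraries. Its level in RSL3-R cells lay above all other libraries, and it rose by a log2 fold change of 1.08 (SE 0.11, edgeR adjusted p = 1.54e-06) against vehicle. In erastin-R cells it had 0.21 (SE 0.11, edgeR adjusted p = 0.114). CTSO, a less studied cathepsin, had 92, 100 and 95 reads in vehicle, 79, 89 and 91 in erastin-R and 200, 196 and 244 in RSL3-R libraries. It rose in RSL3-R cells by 1.17 against vehicle (SE 0.13, edgeR adjusted p = 5.23e-06) and was higher by 1.31 than in erastin-R cells (SE 0.13, edgeR adjusted p = 2.80e-06).

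CTSS, the cathepsin of antigen presenting cells, had 111, 111 and 101 reads in vehicle, 69, 56 and 65 in erastin-R and 151, 134 and 133 in RSL3-R libraries. Its groups did not overlap and had the order of the salivary cystatins: it fell by 0.76 in erastin-R cells (SE 0.15, edgeR adjusted p = 0.000661), rose by 0.39 in RSL3-R cells (SE 0.14, edgeR adjusted p = 0.0303) and was higher in RSL3-R than in erastin-R cells by 1.15 (SE 0.15, edgeR adjusted p = 2.34e-05). Only the last passed the minimum fold change. CTSO and CTSS were the 2 protease genes called higher in RSL3-R against erastin-R cells, where 6.86% of all genes were.

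CTSB, the gene of cathepsin B, was the protease gene with the most reads, 6866 to 9081 per library. It rose by 0.29 in RSL3-R cells (SE 0.06, edgeR adjusted p = 0.000926) and had 0.05 in erastin-R cells (SE 0.06, edgeR adjusted p = 0.490). LGMN, the gene of legumain, which trims cathepsins and is itself inhibited by cystatins C and E/M, rose by 0.43 in RSL3-R cells (SE 0.07, edgeR adjusted p = 0.000177) and had -0.03 in erastin-R cells (SE 0.07, edgeR adjusted p = 0.754). Summed over the 12 genes, the protease level was 905 to 947 CPM in vehicle, 906 to 957 in erastin-R and 1102 to 1126 in RSL3-R libraries. The summed level of the 7 cystatins was 514 to 530 CPM, 304 to 367 CPM and 525 to 563 CPM. The erastin-R libraries thus lay apart in the cystatin sum, and the RSL3-R libraries in the protease sum. The largest part came from CST3 (379.7, 278.6 and 342.6 CPM in the same order) and from CTSB (439.6, 454.9 and 536.0 CPM). The cystatin sum in RSL3-R cells hides opposite changes: CST1, CST2 and CST4 had higher means than in vehicle cells, CST3 and CSTB lower.

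**Figure D5:**
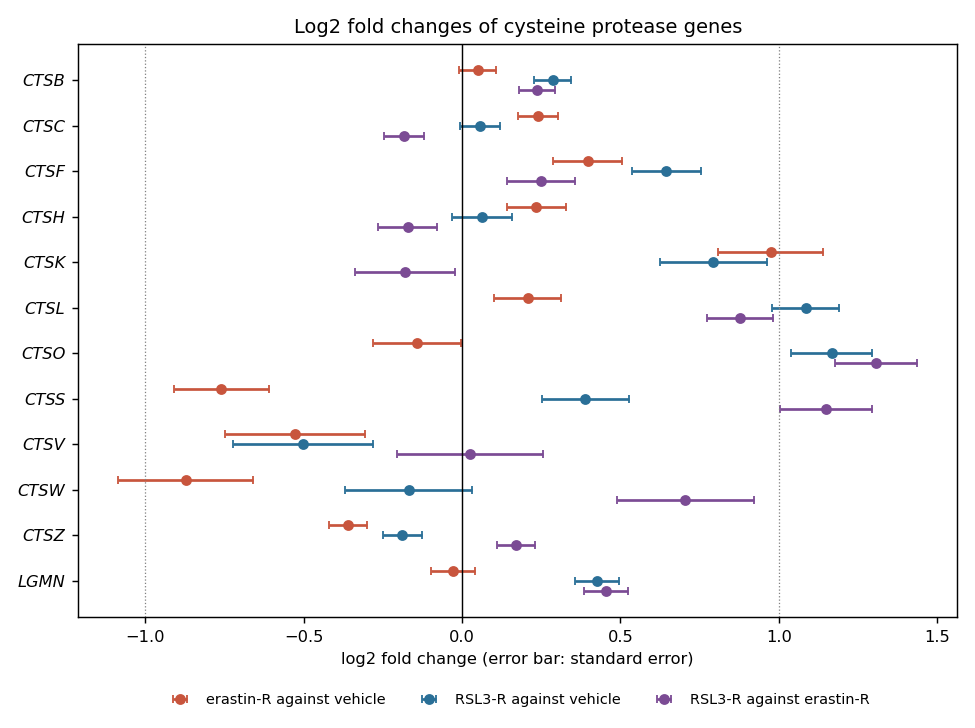
Log2 fold change (x axis) of 12 cysteine protease genes (rows) in the 3 comparisons, with SE as error bars and dotted lines at -1 and 1. CTSL (1.08) and CTSO (1.17) lie beyond the upper line in RSL3-R against vehicle, and CTSO (1.31) and CTSS (1.15) in RSL3-R against erastin-R cells.

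For CST3 the RefSeq promoter table (GRCh38.p14) held a sequence, and 7 short motifs were searched on both strands of it. The window held GGGCGG, which 44.95% of the 35116 promoter windows of the table hold. TATAAA (11.5% of windows), CCAAT (34.6%), TGANTCA (7.71%), TGACGTCA (1.85%), TGATGNAA (3.62%) and CACGTG (7.26%) had no match in it. A match or its absence in 1 window is a description only. The promoters of CST1, CST2, CST4, CST6, CSTA and CSTB were not analysed here.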

How the data were processed

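RNA-seq libraries (n = 9) of MDA-MB-231 cells were analysed, with groups and replicate numbers taken from the sample labels. Libraries were poly-A selected. Per the submitters' processing notes, HISAT2 2.0.5 and featureCounts 1.5.0-p3 were used; strand use and read length are not given in the sources used here. For each library the authors deposited raw read counts per gene, from uniquely mapped exonic reads, and FPKM values that the authors made from them with a gene length over all exons. Genes and coordinates are those of GENCODE 29 (GRCh38).

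Counts were tested in R 4.3.3 with edgeR 4.0.16 (TMM, filterByExpr, quasi-likelihood test, 1 fit of all 9 libraries, no covariate), with Benjamini-Hochberg adjustment over 16188 genes. Each SE was computed as the absolute log2 fold change over the square root of F, and intervals of fold changes as a normal approximation from it. For CST1 in erastin-R cells this SE is smaller than counting error allows. FPKM was used for levels between genes. Coding sequences were compared with Biopython, and the fit was tested on simulated counts. The 7 members, the list of 12 cysteine proteases, 13 other cystatins and the markers of the line, leukocytes, endothelium and keratinocytes were chosen with earlier results of these data known. Named were all members, CTSB, CTSL, LGMN and any protease called, tested neighbours, and the 3 genes most like each member whose group means span a log2 of at least 1. Alternatives were DESeq2 1.42.0 and its size factors, no filter on low counts, a fit of the compared groups only, a replicate block, leaving out single libraries, no minimum fold change, CST1, CST2 and CST4 summed, other FPKM scalings and, added after the data were seen, transcript length. Libraries with the same number did not deviate together (mean correlation -0.0049 over 9 pairs, 0.0026 over 18 pairs with different numbers). A marker gene and a stretch of sequence are not reported here.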

Additional observations from a re-analysis of the deposited data

Results flagged for a closer look

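The log2 differences between RSL3-R and erastin-R cells were 7.21 for CST1, 4.78 for CST4 and 4.19 for CST2. Against the same vehicle libraries, every erastin-R library of these 3 genes was lower and every RSL3-R library higher, which is what marked them. No test of this difference is given, because the choice of the family used the erastin-R libraries, and the 3 genes share sequence.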

How the results depend on the processing

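The members called and the direction of CST1, CST2 and CST4 were the same with DESeq2, its size factors and a fit of the compared groups only. Without the filter on low counts CSTA was called as well, on its 0 to 8 reads per library, so that the number called was 4 in erastin-R cells, 4 when RSL3-R was set against erastin-R and 3 after RSL3. With CST1, CST2 and CST4 summed, 1 cystatin was called in each comparison, at log2 fold changes of -3.74 in erastin-R, 1.22 in RSL3-R and 4.96 in RSL3-R against erastin-R cells. Without a minimum fold change 5 cystatins were called in erastin-R cells, and 7, 8 and 8 proteases in erastin-R, in RSL3-R and in RSL3-R against erastin-R cells. Of the last 8 proteases, 7 were higher in RSL3-R than in erastin-R cells, where 22.3% of all genes were. Leaving out each library in turn left 3 cystatins called in erastin-R cells, 2 to 3 in RSL3-R cells and 3 in RSL3-R against erastin-R cells. The same gave 0 to 1 proteases in erastin-R cells: CTSK without vehicle replicate 2 (1.08) or without erastin-R replicate 3 (1.08), and CTSW without erastin-R replicate 1 (-1.09). It gave 2 proteases in RSL3-R cells and 2 to 3 in RSL3-R against erastin-R cells, with CTSL added without erastin-R replicate 1 (1.03). With the replicate number as a block, 3 cystatins were called in each comparison, and the block changed no call of a member; the numbers did not pair the libraries. Where no cause is shown by the setting itself, the cause was not tested. CST6 and CSTA were limited by depth.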

Other observations

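Of 13 other cystatins and cystatin-like genes, 10 never had more than 3 reads and 2 were tested. CST7, which encodes cystatin F of immune cells, had 9, 15 and 14 reads in vehicle, 26, 47 and 49 in erastin-R and 29, 19 and 20 in RSL3-R libraries. It rose by 1.68 on the log2 scale in erastin-R cells (edgeR adjusted p = 0.00112), the direction opposite to that of CST1, CST2 and CST4, and had 0.85 in RSL3-R cells (edgeR adjusted p = 0.0770). The RSL3-R to erastin-R difference of CST7 was -0.83 (edgeR adjusted p = 0.0467). LXN, which encodes latexin, had -0.46 in erastin-R cells (edgeR adjusted p = 0.0625). Of the markers of other cell types, PECAM1 fell by 2.47 in erastin-R (edgeR adjusted p = 8.28e-08) and CD14 by 1.23 on the log2 scale. In RSL3-R cells PECAM1 had 0.36 and CD14 -0.23 (edgeR adjusted p = 0.0469 and 0.367). PTPRC had -0.29 in erastin-R cells (edgeR adjusted p = 0.685) and rose by 1.67 in RSL3-R cells. It had 4 to 11 reads in vehicle, 3 to 11 in erastin-R and 19 to 24 in RSL3-R libraries. PTPRC thus passed the filter on low counts through the RSL3-R libraries. KRT10 was the only keratinocyte gene tested, and the summed keratinocyte list was 15.8 to 34.4 CPM over all libraries.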
